A study of Mus musculus with 2 samples.

Results

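The DNA methylation machinery genes are 9 genes whose products write, copy, oxidize and remove 5-methylcytosine: Tet1, Tet2, Tet3, Dnmt1, Uhrf1, Dnmt3a, Dnmt3b, Dnmt3l and Tdg. They were taken by name, 9 of the 21938 protein-coding genes in the GENCODE M21 annotation of the mouse genome GRCm38. No measured value entered the rule that names them, but earlier results of these data were known when they were chosen. What was measured is the CG methylation of these genes themselves, at every annotated promoter, over the gene body and in the 10 kb on each side. The data are whole-genome bisulfite sequencing (WGBS) of primary calvarial osteoblasts, the bone-forming cells of the skull vault, isolated from C57BL/6 mice at an age of 3 days and kept in culture for 3 days. The WT library is from wild-type mice. The TCKO library is from mice that carry Prx1-Cre and are homozygous for floxed alleles of all 3 Tet genes (Tet1fl/fl, Tet2fl/fl and Tet3fl/fl), so that the Cre recombinase removes part of each. Whether the wild-type mice carried floxed alleles or Cre is not given in the sources used here. The study compared them to ask how the loss of TET proteins changes DNA methylation in osteoblasts. Prx1-Cre is active in mesenchymal progenitors of the limbs and of part of the skull, so a cell of another origin in the culture would keep intact Tet genes, and the share of such cells was not measured here. Each genotype had 1 library, and how many mice went into it is not given in the sources used here, so differences could not be held against replicate spread and each test is between 2 libraries rather than 2 genotypes.

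DNMT1 copies methylation onto the new DNA strand at replication, and UHRF1 brings it to CpGs that are methylated on one strand only. DNMT3A and DNMT3B place methylation on unmethylated CpGs, and DNMT3L, a relative without catalytic activity that is expressed mainly in germ cells and early embryos, assists them. The TET dioxygenases oxidize 5-methylcytosine to 5-hydroxymethylcytosine and beyond, and TDG, a DNA glycosylase, excises the most oxidized forms so that base excision repair can put back an unmodified cytosine. CpG-rich promoters of genes that are active in many tissues are usually free of methylation, while CpG-poor promoters and gene bodies are usually methylated.

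The WT files hold 261062118 calls on 36612212 CG cytosines of the nuclear chromosomes and those of TCKO 223581206 on 35831384, of 43735100 CG cytosines in the reference, with a median of 4 calls per covered cytosine in both. A call is 1 read over 1 cytosine, and the level of a region is its methylated calls over all its calls, in percent. Bisulfite treatment leaves 5-methylcytosine and 5-hydroxymethylcytosine alike as C, so the level is the sum of both. Intervals in parentheses after a level are 95% Wilson intervals, and those of a difference are Newcombe intervals. They cover counting error only, since several calls can lie on 1 read and whether duplicate reads were removed is not stated. As a check of the cell type, the promoters of osteoblast markers ran in WT from 0% at Runx2 promoter 2 and 1.41% at Col1a1, the main collagen of bone, to 71.8% at Bglap, and those of blood, endothelial, epithelial and muscle markers from 1.69% at Epcam promoter 2 and 3.97% at Kdr to 81.8% at Krt5. The ranges overlap, so these levels do not settle the cell type. Of 10 tested osteoblast marker promoters 3 were called higher in TCKO (Runx2 promoter 1, Ibsp and Spp1 promoter 1) and of 12 promoters of the other markers 2 (both of Pecam1), against 11.5% of all tested promoters, and how far cell composition bears on the results below was not tested.

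A promoter was defined as a cluster of annotated transcription start sites (TSSs) that lie within 500 bp of each other, with 500 bp on either side, and the promoters of a gene were numbered in the direction of transcription. The 9 genes had 48 of them, of which 16 hold the start of a full-length coding transcript and the others start further coding, partial or non-coding models. At 43 promoters both libraries had at least 20 calls and could be tested. A promoter was called with a Benjamini-Hochberg adjusted p below 0.05, from the 2-sided Fisher exact test over all promoters of the genome, and a difference of at least 10 percentage points. Of the 43, 2 (4.65%) were called higher in TCKO, against 11.5% of all tested promoters, and 1 (2.33%) was called lower, against 0.511%. None of the 14 tested full-length coding promoters was called. Of the 26846 tested full-length coding promoters of the genome, 2492 were called higher and 196 lower, so most were not called either. The median difference over the 43 was 1.81 points, against 2.92 points over all tested promoters.

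Among the 16 full-length coding promoters, 10 were at or below 10.7% in WT, or in TCKO where WT had no call. These are the CpG-rich starts of Tet2, Tet3, Dnmt1, Uhrf1, Dnmt3a, Dnmt3b and Tdg. The other 6, at Tet1, Dnmt3l and the upstream start of Dnmt1, were between 50% and 94.1% in WT. The unmethylated and the methylated starts thus stayed apart in both libraries. In TCKO the highest of the unmethylated starts was at 15.0% (on 20 calls) and the lowest of the methylated ones at 57.9%.

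**Figure D1:**
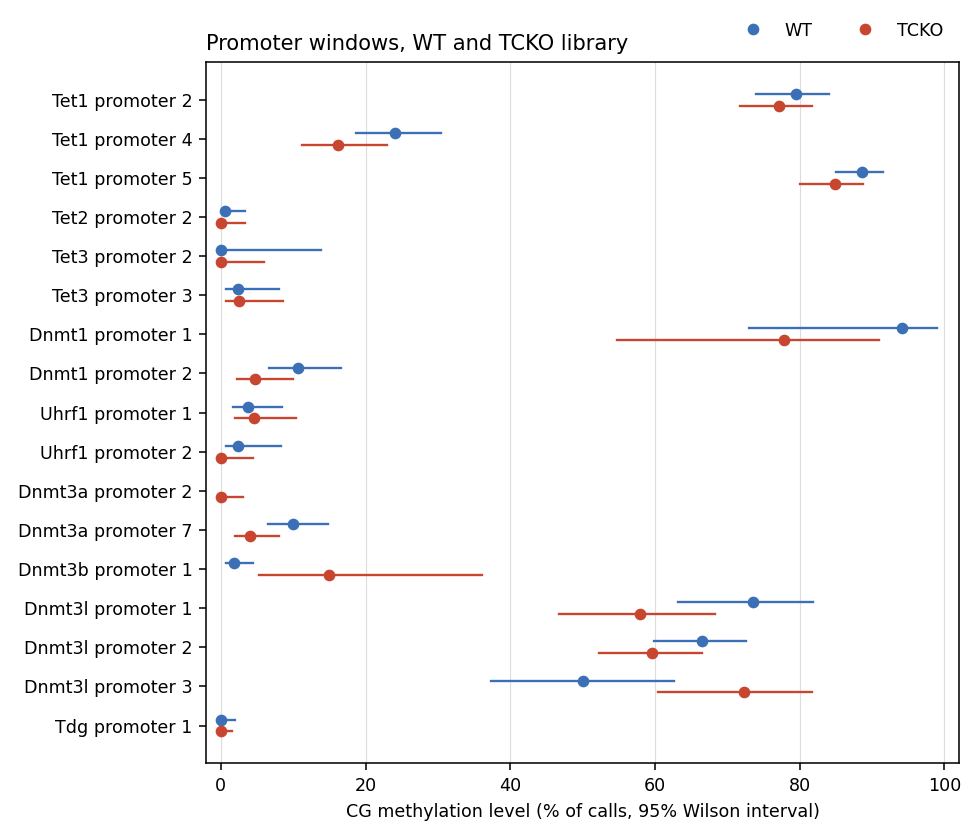
CG methylation level (x axis, percent of calls) at the 16 full-length coding promoters and at Tet1 promoter 4, which holds the RefSeq start, in the WT library (blue) and the TCKO library (red). Points are levels of pooled calls and lines are 95% Wilson intervals of counting error. Dnmt3a promoter 2 had no call in WT, and the 10 starts of low level in WT or TCKO lie at the left in both libraries.

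Tet1 (ENSMUSG00000047146, chr10:62804570-62908996, minus strand) encodes the TET dioxygenase best known from embryonic stem cells and the germ line, and it had 7 promoters that differed widely in level. Promoter 2, the start of the principal transcript, was at 79.5% of 244 calls in WT and 77.1% of 275 in TCKO, a difference of -2.42 points (-9.44 to 4.74). Promoter 5, another full-length start, was at 88.6% and 84.9%. Both of these starts were thus methylated in both libraries. Promoter 4, at the RefSeq start of the gene, is the CpG-rich one, and had 24.0% (18.6% to 30.4%) of 200 WT calls and 16.2% (11.1% to 23.0%) of 148 TCKO calls. The difference of -7.78 points (-15.9 to 0.879) did not pass the test (Fisher exact test, adjusted p = 0.29). Within it the methylation lay upstream, as counted from the most upstream TSS of the cluster. The 500 bp before that TSS had 43.2% in WT and 41.4% in TCKO, and the 500 bp after it had 0% in both, of 48 and 45 calls. The RefSeq start lies downstream of that TSS. The sequence from 250 bases before to 50 bases after the RefSeq start (RefSeq GRCm38.p6, chr10:62887275-62887574, minus strand) is printed as the RefSeq start region of the gene. It has 17 CpGs in 300 bases, shown in capitals.
Tet1 promoter 4: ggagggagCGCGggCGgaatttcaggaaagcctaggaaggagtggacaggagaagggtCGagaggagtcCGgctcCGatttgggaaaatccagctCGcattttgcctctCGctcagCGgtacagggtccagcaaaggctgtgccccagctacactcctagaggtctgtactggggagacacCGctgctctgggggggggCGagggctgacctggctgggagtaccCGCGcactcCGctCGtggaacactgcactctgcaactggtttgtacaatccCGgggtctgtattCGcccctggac
In these 300 bases WT had 8.77% (57 calls) and TCKO 0% (23 calls).

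Tet2 (ENSMUSG00000040943, chr3:133463679-133545139, minus strand), the family member often mutated in blood cancers, was unmethylated at its start. Promoter 2, with 9.59 CpGs per 100 bp the most CpG-dense promoter of any TET gene apart from Tet3 promoter 2, was at 0.595% (168 calls) in WT and 0% (110 calls) in TCKO, which allows a level of up to 3.37% in TCKO by the Wilson interval. The RefSeq start region (chr3:133544341-133544640, minus strand) is printed as the one with the most CpGs among the RefSeq start regions of the 9 genes. It holds 57 CpGs, with no methylated call among 38 in WT and 53 in TCKO.
Tet2 promoter 2: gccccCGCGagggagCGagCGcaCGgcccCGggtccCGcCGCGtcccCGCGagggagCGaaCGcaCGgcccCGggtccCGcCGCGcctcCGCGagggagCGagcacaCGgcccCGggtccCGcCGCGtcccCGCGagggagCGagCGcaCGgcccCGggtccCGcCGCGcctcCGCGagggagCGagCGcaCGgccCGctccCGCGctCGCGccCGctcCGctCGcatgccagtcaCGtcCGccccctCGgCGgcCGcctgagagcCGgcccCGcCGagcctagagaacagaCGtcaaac
Promoter 1, at a start further upstream, was at 7.24% of 221 WT calls and 16.8% of 107 TCKO calls, a difference of 9.58 points (2.34 to 18.2) that was not called (Fisher exact test, adjusted p = 0.0721). On the 30 cytosines there with a call in both libraries the levels were 7.07% and 21.7%, and the difference of 14.6 points was called (Fisher exact test, adjusted p = 0.0111). It was not called on cytosines with at least 4 calls in both (Fisher exact test, adjusted p = 0.146), and on the plus strand alone the difference was -1.70 points. The remaining 4 tested promoters of Tet2, within the gene, were between 84.7% and 90.3% in WT and between 82.7% and 94.0% in TCKO.

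Tet3 (ENSMUSG00000034832, chr6:83362373-83459084, minus strand) encodes the TET dioxygenase of the oocyte and many somatic tissues. Promoter 2, the start of the long principal transcript, had no methylated call among 24 in WT and 61 in TCKO, and promoter 3, the RefSeq start, was at 2.30% (87 calls) in WT and 2.47% (81 calls) in TCKO. In promoter 2 the libraries covered different cytosines, 24 in WT and 61 in TCKO of 254, with none in common. Promoter 1, the start of another coding model further upstream, was at 71.2% and 74.5%. Both full-length starts of Tet3 were thus low in WT and in TCKO, and no Tet3 promoter was called. In a window of 2 kb promoter 2 was called lower, by 10.6 points (Fisher exact test, adjusted p = 0.0152), and on cytosines with a call in both libraries that call was lost (adjusted p = 0.149).

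Dnmt1 (ENSMUSG00000004099, chr9:20907209-20959888, minus strand), the maintenance methyltransferase, starts at an upstream promoter and at the somatic promoter. Promoter 1, the upstream one, has 4 CpGs in its 1001 bp and was at 94.1% of 17 WT calls and 77.8% of 18 TCKO calls, too few calls to be tested. Promoter 2, the somatic one, was at 10.7% of 150 WT calls and 4.72% of 127 TCKO calls, a difference of -5.94 points (-12.4 to 0.614) that did not pass the test (Fisher exact test, adjusted p = 0.277). As at Tet1 the methylated calls lay upstream: the 500 bp before the TSS had 16 methylated of 46 calls in WT and 6 of 30 in TCKO, and both 500 bp windows after it had none. The 300 bases around the RefSeq start within this promoter (chr9:20952574-20952873, minus strand, 33 CpGs) are printed as the unmethylated core, with no methylated call among 51 in WT and 56 in TCKO.
Dnmt1 promoter 2: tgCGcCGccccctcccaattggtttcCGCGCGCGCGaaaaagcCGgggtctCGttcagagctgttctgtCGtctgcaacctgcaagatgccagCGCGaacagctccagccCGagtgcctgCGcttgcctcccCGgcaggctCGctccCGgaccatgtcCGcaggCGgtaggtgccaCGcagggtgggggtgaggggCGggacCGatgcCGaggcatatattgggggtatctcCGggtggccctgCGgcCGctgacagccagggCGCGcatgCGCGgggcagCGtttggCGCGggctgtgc
The somatic start of the enzyme that maintains methylation was therefore unmethylated in both libraries at the depth available.

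Uhrf1 (ENSMUSG00000001228, chr17:56303321-56323486, plus strand), the reader of hemimethylated CpGs, was low at both of its coding starts. Promoter 1 was at 3.73% (134 calls) in WT and 4.63% (108 calls) in TCKO, and promoter 2 at 2.41% (83 calls) and 0% (83 calls). The intervals of both differences include 0. Its 2 inner promoters, of non-coding models, were at 84.5% and 93.4% in WT and at 90.9% and 97.8% in TCKO, and neither was called.

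Dnmt3a (ENSMUSG00000020661, chr12:3806007-3914443, plus strand), the main de novo methyltransferase of differentiated cells, had 12 promoters and the only call in the downward direction. Promoter 2, the start of the long isoform, is the most CpG-dense promoter of the 9 genes, with 15.6 CpGs per 100 bp. WT had no call on any of its 352 CG cytosines, and TCKO had calls on 108, with 0% of 120 calls methylated. Whether its level differed between the libraries could therefore not be measured. The RefSeq start region (chr12:3806910-3807209, plus strand, 47 CpGs) is printed because no WT call fell in it, against 50 calls in TCKO.
Dnmt3a promoter 2: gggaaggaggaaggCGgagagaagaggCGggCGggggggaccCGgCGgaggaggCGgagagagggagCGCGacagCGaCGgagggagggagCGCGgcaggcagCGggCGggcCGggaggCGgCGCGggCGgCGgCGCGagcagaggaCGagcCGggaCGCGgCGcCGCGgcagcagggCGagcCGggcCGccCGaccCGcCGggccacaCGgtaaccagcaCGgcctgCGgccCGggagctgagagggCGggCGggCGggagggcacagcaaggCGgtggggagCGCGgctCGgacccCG
Promoter 1, the adjoining start cluster upstream, whose window overlaps that of promoter 2, was at 59.8% (50.1% to 68.8%) in WT and 30.6% (23.4% to 38.8%) in TCKO, and was called lower by 29.2 points (Fisher exact test, adjusted p = 0.000255). Here too the libraries covered different cytosines, 34 in WT and 76 in TCKO, with 14 in common. On those 14 the levels were 77.3% and 69.5%, and the difference of -7.78 points (-23.0 to 7.58) did not pass the test (Fisher exact test, adjusted p = 0.774). The call at promoter 1 thus did not hold on cytosines with a call in both libraries.

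Promoter 7 of Dnmt3a, the start of the short isoform known from stem cells, was at 9.90% of 202 WT calls and 4.02% of 174 TCKO calls, a difference of -5.88 points (-11.2 to -0.592) that did not pass the test (Fisher exact test, adjusted p = 0.143). On its 37 cytosines with a call in both libraries the levels were 7.14% and 4.02%. Promoter 8, the start of 2 other coding models further downstream, was at 78.3% (217 calls) in WT and 90.6% (117 calls) in TCKO, and was called higher by 12.3 points (3.96 to 19.5; Fisher exact test, adjusted p = 0.0456). The call was near its threshold and was lost on the calls of either strand alone, where the differences were 12.2 points (plus) and 9.74 points (minus). The 7 remaining tested promoters of Dnmt3a, all within the gene, had differences from -4.59 to 14.3 points and none was called.

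Dnmt3b (ENSMUSG00000027478, chr2:153649450-153687730, plus strand), the de novo methyltransferase of the early embryo, had 1 coding promoter and 2 of non-coding models. Promoter 1 was at 1.75% (229 calls) in WT and 15.0% (5.24% to 36.0%, 20 calls) in TCKO, with calls on 96 of 214 cytosines in WT and 17 in TCKO, and the difference of 13.3 points (3.13 to 34.3) did not pass the test (Fisher exact test, adjusted p = 0.0786). On the 16 cytosines in common the levels were 5.66% (53 calls) and 15.8% (19 calls). Promoter 2, a non-coding model within the gene, was called higher, from 71.4% (245 calls) to 84.7% (189 calls), by 13.2 points (5.36 to 20.7; Fisher exact test, adjusted p = 0.0132). On its plus strand alone the difference was -4.63 points and on its minus strand alone 19.8 points, so the call rests on the minus strand. As a mean of cytosine levels the difference was 2.03 points.

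Dnmt3l (ENSMUSG00000000730, chr10:78041947-78063622, plus strand) was methylated at all 3 of its coding promoters, which are CpG-poor, with 1.40 to 1.88 CpGs per 100 bp. Promoter 1 was at 73.5% (83 calls) in WT and 57.9% (76 calls) in TCKO, promoter 2 at 66.5% (209 calls) and 59.6% (178 calls), and promoter 3 at 50% (56 calls) and 72.3% (65 calls). None passed the test (Fisher exact test, adjusted p = 0.194, 0.454 and 0.0881). On cytosines with a call in both libraries promoter 3 was called, at 76.9% in TCKO and 26.9 points above WT (Fisher exact test, adjusted p = 0.0438), and the differences at promoters 1 and 2 were -11.4 points (-26.2 to 4.34) and -6.75 points (-16.5 to 3.22). The difference at promoter 3 was 7.68 points on the plus strand and 38.9 points on the minus strand, and 4.05 points in a window of 1 kb. As a mean of cytosine levels, the difference at promoter 1 was 3.72 points and so of the other sign. The RefSeq region of promoter 2 (chr10:78049592-78049891, plus strand) has 4 CpGs in 300 bases and is printed beside the CpG-rich starts to show the contrast in CpG number. On few calls, these bases were at 33.3% (21 calls) in WT and 53.8% (13 calls) in TCKO, so lower than the whole promoter and of the other direction.
Dnmt3l promoter 2: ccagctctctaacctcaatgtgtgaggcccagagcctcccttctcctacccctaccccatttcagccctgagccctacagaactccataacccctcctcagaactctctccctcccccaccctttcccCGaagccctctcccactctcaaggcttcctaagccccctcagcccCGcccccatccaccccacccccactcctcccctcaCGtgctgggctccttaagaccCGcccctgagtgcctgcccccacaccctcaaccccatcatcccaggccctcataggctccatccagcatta
Dnmt3l was thus the only one of the 9 genes with no coding promoter below 50% in either library.

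Tdg (ENSMUSG00000034674, chr10:82629828-82650799, plus strand), the glycosylase that acts after TET, had the firmest measurement of an unmethylated start. Promoter 1 had no methylated call among 192 in WT and 240 in TCKO, which allows a level of up to 1.58% in TCKO by the Wilson interval. Its RefSeq start region (chr10:82629588-82629887, plus strand) has 26 CpGs and is printed as the promoter of this group that was best covered in both libraries.
Tdg promoter 1: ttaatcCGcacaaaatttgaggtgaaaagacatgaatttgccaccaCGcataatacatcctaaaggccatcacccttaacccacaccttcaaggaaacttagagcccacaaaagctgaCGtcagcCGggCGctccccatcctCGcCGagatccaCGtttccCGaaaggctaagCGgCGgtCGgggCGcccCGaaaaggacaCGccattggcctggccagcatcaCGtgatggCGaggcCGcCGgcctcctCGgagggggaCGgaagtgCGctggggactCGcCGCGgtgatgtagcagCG
Promoter 2, further downstream, was at 9.30% (129 calls) in WT and 11.1% (117 calls) in TCKO. Promoter 4, of partial models within the gene, passed the test at 88.6% of 360 WT calls and 95.2% of 336 TCKO calls (Fisher exact test, adjusted p = 0.015), but its difference of 6.63 points (2.59 to 10.7) is under the 10 points set for a call.

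At the CpG-dense starts of Tet3, Dnmt3a and Dnmt3b the libraries thus covered different cytosines. Restricting all promoters to cytosines with a call in both libraries, a choice made after these gaps were seen, left 40 of the 48 promoters to be tested, of which 4 (10%) were called higher, against 10.4% of all promoters, and 0 were called lower, against 0.314%. The 4 were Tet2 promoter 1, Dnmt3a promoter 8, Dnmt3b promoter 2 and Dnmt3l promoter 3. The median difference over the 40 was 0.357 points.

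**Figure D2:**
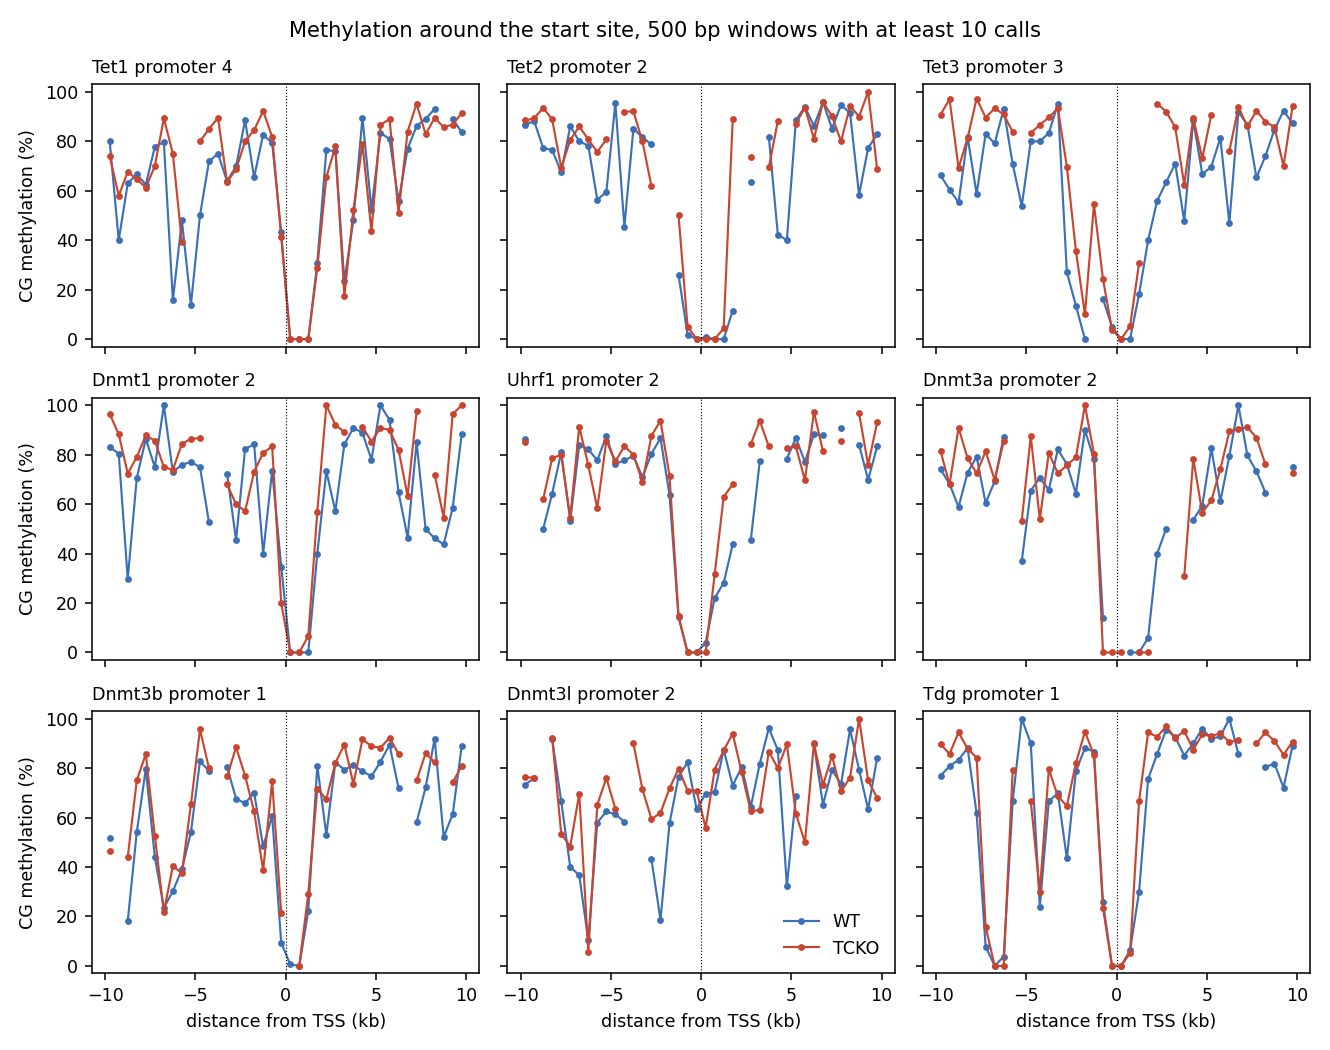
CG methylation (y axis, percent of calls) in 500 bp windows from 10 kb upstream to 10 kb downstream of the most CpG-dense coding start in RefSeq of each gene (x axis, kb in the direction of transcription), in WT (blue) and TCKO (red). Windows with under 10 calls are left out, lines join neighbouring windows, and levels near 0% next to the TSS are seen at every gene except Dnmt3l. WT had no call within 500 bp of the Dnmt3a start and TCKO none in the first 500 bp after the Dnmt3b start.

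The sequence next to the starts was measured as well. The shore of a promoter was taken as the sequence from 500 to 2500 bp on either side of its TSS cluster, and was tested over all promoters in the same way, a test added after values were seen. Of the 48 shores, 10 (20.8%) were called higher in TCKO, against 24.7% of all shores, and 0 were called lower, against 0.743%. On cytosines with a call in both libraries 8 (16.7%) were called higher, against 23.7%, and 0 lower, against 0.477%. Neighbouring shores of 1 gene overlap, so these counts are not of independent regions.

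At the Tet2 start the shore of promoter 2 rose from 4.63% (410 calls) to 16.9% (272 calls), by 12.3 points (7.58 to 17.5; Fisher exact test, adjusted p = 2.17e-06). The start itself was at 0.595% in WT and 0% in TCKO. Much of the gain in this shore lay in 1 window of 500 bp, centred 1750 bp downstream of the TSS, with 2 CG cytosines. That window had 3 methylated of 26 calls in WT and 24 of 27 in TCKO. The shore without it was not tested. At Tet3 promoter 3 the shore rose from 24.0% (334 calls) to 36.1% (327 calls), by 12.1 points (5.15 to 19.0; Fisher exact test, adjusted p = 0.00279). At the upstream promoter of Dnmt1 it rose from 65.1% (647 calls) to 80.7% (545 calls), by 15.7 points (10.6 to 20.5; Fisher exact test, adjusted p = 2.79e-08). All 3 calls held on cytosines with a call in both libraries, at 13.2, 13.9 and 16.2 points. Uhrf1 promoter 1 was called on those cytosines only, with 54.2% in WT and 64.6% in TCKO (Fisher exact test, adjusted p = 0.0199).

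At the long isoform start of Dnmt3a the call did not hold. Its shore was called higher by 30.9 points, from 27.0% (322 calls) to 57.9% (114 calls), but on cytosines with a call in both libraries the levels were 65.7% and 65.3%, a difference of -0.38 points (-13.4 to 12.6). The shores of Tet1 promoter 4, Dnmt1 promoter 2, Dnmt3b promoter 1, the 3 Dnmt3l promoters and Tdg promoter 1 were not called in either form. Within Tet1, the shores of promoter 3 and promoter 6 were called higher in both forms, by 19.0 and 18.2 points over all calls. So were those of Dnmt1 promoter 4 and Dnmt3a promoter 12, by 12.4 and 11.2 points over all calls. On cytosines with a call in both libraries these differed by 15.8 and 10.7 points. The shores of Dnmt3a promoters 1 and 3 were called higher over all calls only.

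**Figure D3:**
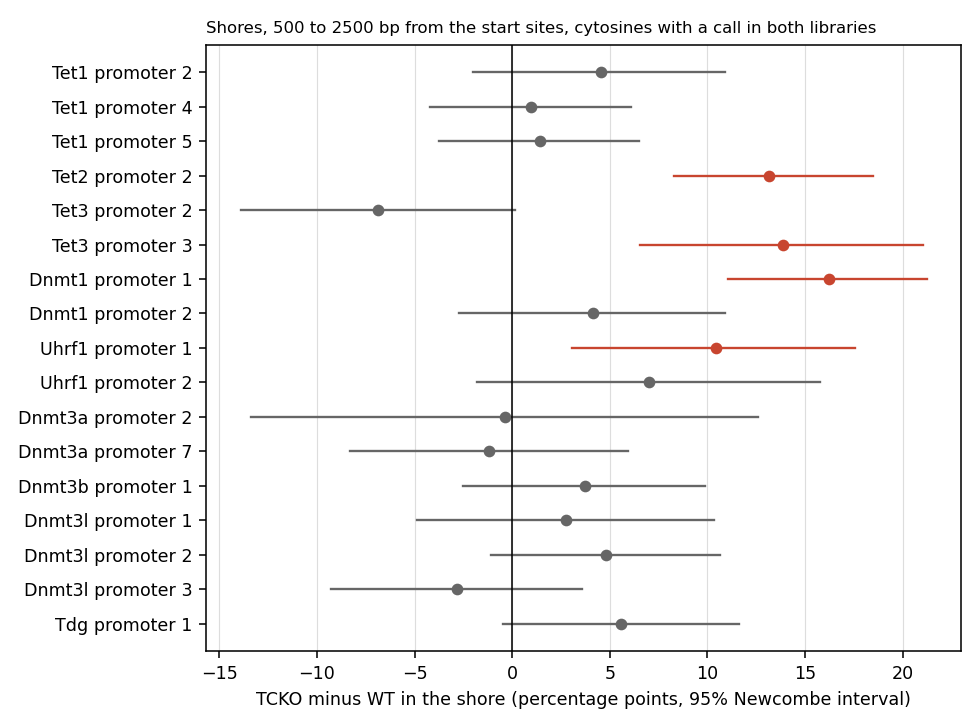
Difference in CG methylation (x axis, TCKO minus WT, percentage points) in the shores of the 16 full-length coding promoters and of Tet1 promoter 4, on cytosines with a call in both libraries. Points are differences of pooled calls, lines are 95% Newcombe intervals, and the 4 shores called higher (red) belong to Tet2 promoter 2, Tet3 promoter 3, Dnmt1 promoter 1 and Uhrf1 promoter 1.

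The extent of the unmethylated stretch was read as the distance from the TSS cluster to the first 200 bp bin at 50% or above, among bins with at least 10 calls in both libraries. Of the 10 starts of low level the stretch was read as narrower in TCKO at 5 and as wider at 0. The stretch was not measured for other genes, so no share over them stands beside this count. At Tet2 promoter 2 it reached 2400 bp upstream and 2800 bp downstream in WT, and 1000 bp and 1600 bp in TCKO. There 4 of 12 bins upstream and 7 of 14 downstream had enough calls in both libraries. At Tet3 promoter 3 it reached 3200 bp and 2200 bp in WT, and 2600 bp and 2000 bp in TCKO. The other 3 narrower ones were both Uhrf1 starts, which lie in the same stretch, and Tdg, each by 200 or 400 bp on a side. At the remaining 5 no difference was read, but this is no measure of equal extent: at Dnmt3a promoter 2 none of the 5 bins upstream and 20 downstream had enough calls in both libraries, and at Tet3 promoter 2 only 2 of 7 and 1 of 6 had. A single bin of few calls can set this distance, so it is given as a description.

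The gene bodies, from the first to the last annotated base, had a higher level in TCKO at all 9 genes, as did 84.2% of all tested bodies. The differences ran from 0.683 points at Tdg to 8.91 points at Tet3, with a median of 4.83 points against 5.66 points over all 21625 tested bodies. None reached the 10 points set for a call, which 14.8% of all bodies did upwards and 0.731% downwards. By the adjusted p alone 7 of the 9 were higher, against 64.4% of all bodies. The median of the 9 thus lay below that of all bodies.

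Tet3 went from 72.9% (10356 calls) to 81.8% (8480 calls), Dnmt3a from 69.8% to 78.4%, by 8.62 points, and Dnmt3b from 74.8% to 82.1%, by 7.24 points. Tet1 went from 73.9% (14737 calls) to 80.3% (11658 calls), by 6.37 points (5.36 to 7.38), Tet2 from 79.8% to 84.6%, Dnmt1 from 78.5% to 83.2% and Uhrf1 from 74.8% to 79.4%. These 7 passed the test by the Fisher exact test, with adjusted p from 8.35e-47 at Tet3 to 0.0024 at Uhrf1. The other 2 were Dnmt3l, at 67.6% and 69.5%, with a difference of 1.91 points (-1.05 to 4.86), and Tdg, at 82.3% and 83.0%, with a difference of 0.683 points (-1.38 to 2.72). On cytosines with a call in both libraries the Tdg body differed by 3.35 points (1.32 to 5.36) and passed the test (Fisher exact test, adjusted p = 0.00245), as it did without the promoter windows, by 4.70 points. The bodies of the Tet genes contain the deleted exons. Leaving out 500 bp windows of low TCKO depth changed no call, but took the Dnmt3b difference to 4.21 points, and it was 4.51 points on cytosines with a call in both libraries and 3.49 points without the promoter windows. On the minus strand alone the Tet3 and Dnmt3a bodies were called higher, and without the promoter windows Dnmt3a was, by 10.5 points.

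Introns and exons were also taken apart. On cytosines with a call in both libraries, introns were higher in TCKO at all 9 genes with an interval above 0, by 4.21 points at Dnmt3l to 10.5 points at Tet3 and with a median of 5.59 points. Exons were higher with an interval above 0 at 4 genes, Tet1, Tet2, Tet3 and Dnmt3a, with a median over the 9 of 2.79 points. At Tet3 the exons went from 74.4% to 81.2%, by 6.76 points, and the introns from 73.1% to 83.6%. At Dnmt3l the exons were at 71.7% of 286 WT calls and 63.5% of 304 TCKO calls, a difference of -8.19 points (-15.6 to -0.627). Over all calls the exons of Dnmt3b differed by 10.2 points and its introns by 6.49 points. The difference between exons and introns was not tested. Introns and exons of all genes were not measured, so no share over them stands beside these counts.

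The 10 kb flanks were described in the same way, over all calls and without a test. The flanks of all genes were not measured, so no share over them stands beside these values. The flank downstream of Uhrf1 was at 40.5% (859 calls) in WT and 57.0% (572 calls) in TCKO, 16.5 points apart (11.2 to 21.6). The flank downstream of Dnmt3l was at 51.3% and 64.3%, 13.0 points apart, and the flank upstream of Tet2 at 64.8% and 78.5%, 13.7 points apart. These 3 flanks are given because their differences were the largest of all the flanks, and each exceeded that of the body of its own gene. This was not particular to them, since some other flanks also differed by more than their own body and some by less. The upstream differences ran from 2.02 to 13.7 points with a median of 3.98 points. The downstream ones ran from -0.326 points at Dnmt3b to 16.5 points with a median of 9.58 points.

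**Figure D4:**
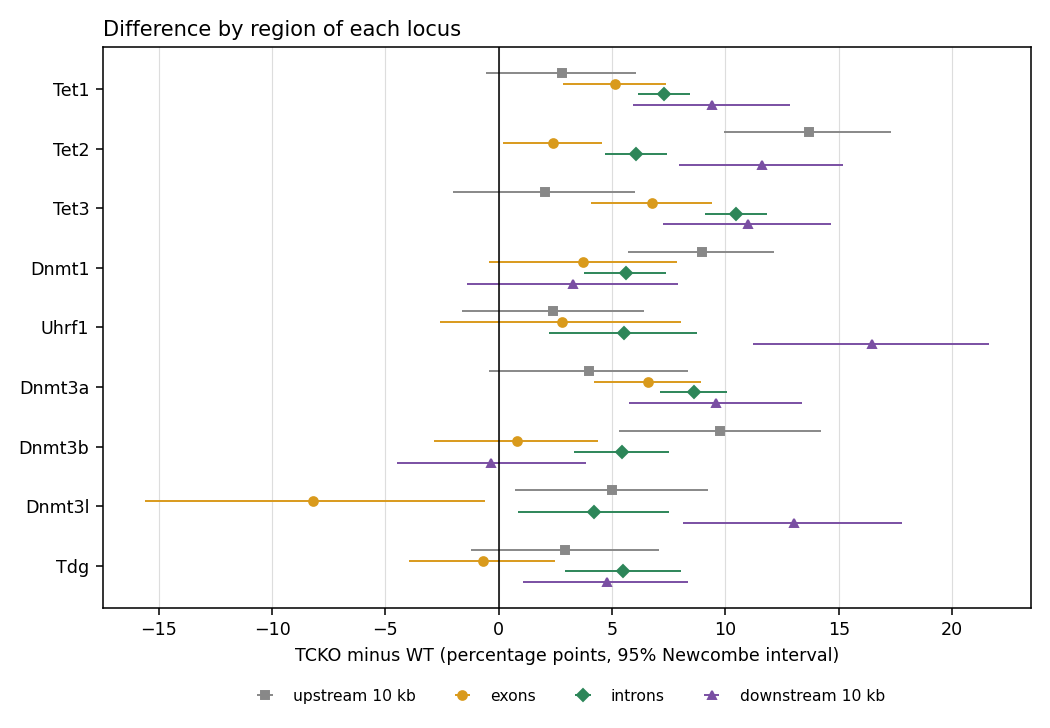
Difference in CG methylation (x axis, TCKO minus WT, percentage points) in the 10 kb upstream, the exons, the introns and the 10 kb downstream of each gene. Points are differences of pooled calls, with exons and introns on cytosines with a call in both libraries, and lines are 95% Newcombe intervals. The introns of all 9 genes lie above 0, by 4.21 to 10.5 points, and the introns of other genes were not measured.

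Differentially methylated regions (CG-DMRs) were called in bins of 200 bp, for which both libraries needed an average depth of 4 reads or more over no fewer than 4 CG cytosines, at a difference above 40 percentage points with an adjusted p below 0.05 over 2534629 testable bins (2-sided Fisher exact test), and adjacent bins were joined. In the 9 genes and their flanks 693 bins were testable. Of these, 20 were called higher in TCKO (2.89%, against 2.86% of all testable bins) and 0 were called lower (against 0.035%), which gave 18 hyper-CG-DMRs and no hypo-CG-DMR. Tet1 had 5, with 2.66% of its 188 testable bins called, Tet2 had 3, with 2.54% of 118, and Dnmt1 had 1, with 2.63% of 38. Tet3 had 5, with 6.59% of 91, and Dnmt3a had 4, with 4.85% of its testable bins called. Uhrf1, Dnmt3b, Dnmt3l and Tdg had 0, of 22, 64, 23 and 46 testable bins. Of the 18, 14 lay in an intron of the principal transcript, 1 in an exon and 3 in a flank, and 0 overlapped a promoter window. How the testable bins divide among these parts was not counted, so no share stands beside these counts and they are a description. Their WT levels ran from 0% to 58.6% with a median of 35.0%, and their TCKO levels from 64.9% to 100% with a median of 87.5%. The difference was the criterion of the call, so these levels are a description.

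**Figure D5:**
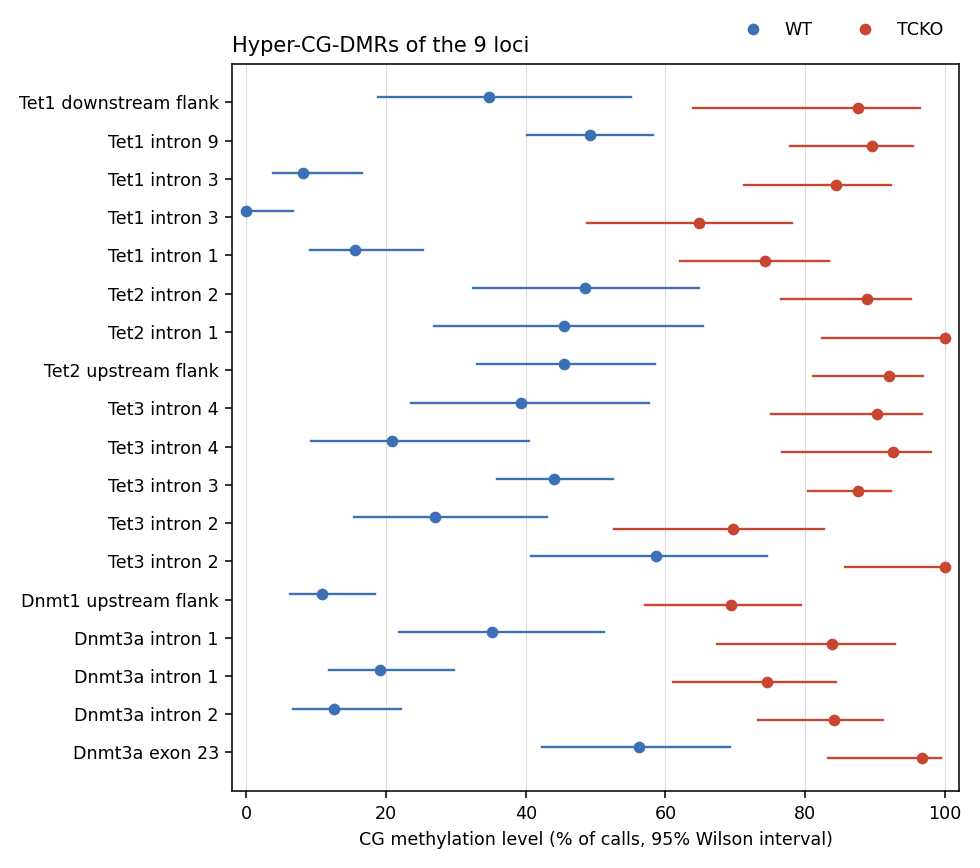
CG methylation level (x axis, percent of calls) of the 18 hyper-CG-DMRs in the 9 loci, in the WT library (blue) and the TCKO library (red), named by gene and by intron or exon of the principal transcript or by flank. Points are levels of pooled calls and lines are 95% Wilson intervals of counting error. WT levels lie between 0% and 58.6% and TCKO levels between 64.9% and 100%, as the rule of at least 40 points asks.

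The DMR nearest a full-length start was at Dnmt1, in the upstream flank 1812 bp before promoter 1 (chr9:20961601-20961800). It rose from 10.9% (6.19% to 18.5%) of 101 WT calls to 69.4% (57.0% to 79.4%) of 62 TCKO calls (Fisher exact test, adjusted p = 5.78e-12), and all 6 of its CpGs were higher. It lies in the shore that was called at this promoter, and its calls are part of those tested there. The shore call and this DMR are therefore not separate results, and the shore without the DMR was not tested. At Tet3 the DMR nearest a full-length start lay 2826 bp upstream of promoter 3, in intron 2 (chr6:83444401-83444600), and rose from 27.0% (37 calls) to 69.7% (33 calls), with an adjusted p of 0.0144 by the Fisher exact test. It also overlaps the non-coding gene B230319C09Rik, so it cannot be assigned to Tet3 alone. At Tet2 it lay 4310 bp upstream of promoter 2 (chr3:133548601-133548800), within the antisense gene Gm42567, and rose from 45.5% (55 calls) to 92.0% (50 calls) by the Fisher exact test at an adjusted p of 1.71e-05.

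In Tet1 the DMR nearest a full-length start lay in intron 1 (chr10:62893601-62893800), between promoters 2 and 3. It rose from 15.6% (9.15% to 25.3%, 77 calls) to 74.2% (62.1% to 83.4%, 62 calls), by 58.6 points (Fisher exact test, adjusted p = 6.38e-10). The DMR of Tet1 with the most calls, in intron 9 (chr10:62817001-62817200), rose from 49.1% (114 calls) to 89.6% (48 calls), by 40.5 points. Intron 3 of Tet1 held 2 more, named here after their values were seen because they had the lowest WT levels of all 18. The one at chr10:62847001-62847200 rose from 8.11% (74 calls) to 84.4% (45 calls), by 76.3 points, the most of the 18, and the one at chr10:62851201-62851400 rose from 0% (54 calls, up to 6.64%) to 64.9% (48.8% to 78.2%, 37 calls). These 2 stretches of intron 3, nearly unmethylated in WT osteoblasts, were thus mostly methylated in TCKO, but a gain was the criterion of the call. Not every stretch of low level inside Tet1 rose in this way. Promoter 6, of a non-coding model within the gene, was at 2.44% (82 calls) in WT and 5.97% (67 calls) in TCKO. Neither it nor the CpG-rich start was called.

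In Tet3 the DMR with the most calls spanned 400 bp of intron 3 (chr6:83408401-83408800) and rose from 44.0% (134 calls) to 87.5% (120 calls). One in intron 4 (chr6:83402201-83402400), named after its value was seen, rose from 20.8% (24 calls) to 92.6% (27 calls), by 71.8 points. In Dnmt3a the DMR with the most calls lay in intron 2 (chr12:3846801-3847000) and rose from 12.5% (6.72% to 22.1%, 72 calls) to 84.1% (73.2% to 91.1%, 63 calls), by 71.6 points (Fisher exact test, adjusted p = 7.46e-15). The one nearest a full-length start lay in intron 1 (chr12:3817601-3817800), 10670 bp downstream of promoter 2, and rose from 35.1% (37 calls) to 83.9% (31 calls). The only DMR in an exon was also in Dnmt3a, in untranslated sequence of exon 23 (chr12:3908001-3908200), from 56.2% (48 calls) to 96.7% (30 calls). Dnmt3a thus had called bins in introns 1 and 2 and in exon 23. Of its full-length starts, promoter 7 was not called, and promoter 2 could not be tested because WT had no call there.

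The sequences of the DMRs with a WT level under 21% and 1 bin, and of the Tet2 one, are printed to show how few CpGs carry these differences (GRCm38, plus strand, CpGs in capitals).
Tet1 intron 1, chr10:62893601-62893800: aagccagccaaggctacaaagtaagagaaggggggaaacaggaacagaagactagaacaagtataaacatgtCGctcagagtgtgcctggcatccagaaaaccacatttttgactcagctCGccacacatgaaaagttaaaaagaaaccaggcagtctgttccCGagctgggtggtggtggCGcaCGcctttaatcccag
Tet1 intron 3, chr10:62847001-62847200: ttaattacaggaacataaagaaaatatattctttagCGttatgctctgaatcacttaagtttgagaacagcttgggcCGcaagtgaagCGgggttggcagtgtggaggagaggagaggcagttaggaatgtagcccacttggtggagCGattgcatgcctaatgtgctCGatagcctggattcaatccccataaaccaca
Tet1 intron 3, chr10:62851201-62851400: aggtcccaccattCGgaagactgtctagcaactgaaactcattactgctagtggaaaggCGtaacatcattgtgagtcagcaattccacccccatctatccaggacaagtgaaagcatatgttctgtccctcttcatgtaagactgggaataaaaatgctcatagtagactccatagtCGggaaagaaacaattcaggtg
Tet2 upstream, chr3:133548601-133548800: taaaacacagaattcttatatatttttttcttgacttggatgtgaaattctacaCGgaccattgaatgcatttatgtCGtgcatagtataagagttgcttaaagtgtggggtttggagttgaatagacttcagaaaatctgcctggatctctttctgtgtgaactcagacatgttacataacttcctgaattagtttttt
Tet3 intron 4, chr6:83402201-83402400: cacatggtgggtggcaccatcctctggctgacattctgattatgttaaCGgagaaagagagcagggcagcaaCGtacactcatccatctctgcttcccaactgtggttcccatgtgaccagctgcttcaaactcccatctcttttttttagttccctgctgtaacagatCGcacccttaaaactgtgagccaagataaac
Dnmt1 upstream, chr9:20961601-20961800: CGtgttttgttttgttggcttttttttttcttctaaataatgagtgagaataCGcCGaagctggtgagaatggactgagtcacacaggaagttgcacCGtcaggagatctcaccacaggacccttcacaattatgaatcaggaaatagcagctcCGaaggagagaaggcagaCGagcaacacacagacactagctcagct
Dnmt3a intron 2, chr12:3846801-3847000: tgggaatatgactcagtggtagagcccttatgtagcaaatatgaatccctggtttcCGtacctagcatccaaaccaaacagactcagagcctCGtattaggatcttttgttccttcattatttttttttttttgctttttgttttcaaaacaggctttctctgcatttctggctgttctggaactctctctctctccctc
They hold between 2 and 6 CpGs each, against 47 in 300 bases at the Dnmt3a start. Over the 18 DMRs 61 CpGs had a call in both libraries, and all 61 had a higher level in TCKO. The DMRs were called on a gain in these same calls, so this shared direction is largely set by the call and is a description. In the Tet1 DMR at chr10:62847001-62847200 the CpG at position 37, counted from 1 at the left, went from 11.8% (17 calls) to 94.7% (19 calls). In the Dnmt3a DMR in intron 2, which has CpGs at positions 57 and 93, they went from 22.9% (35 calls) to 93.5% (31 calls) and from 2.70% (37 calls) to 75.0% (32 calls).

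The DMR sequences were searched on both strands for the letters TGACTCA, bound by AP-1 factors, and AACCACA, bound by RUNX factors. TGACTCA was found in 6 of the 18 DMRs, and among the 16 of a single bin in 5 (31.2%), against 3.01% of all testable bins and 8.56% of all bins called higher. AACCACA was found in 3 of the 18, all of a single bin (18.8% of the 16), against 5.0% of all testable bins and 9.01% of all bins called higher. The Tet1 DMR in intron 1 held both, AACCACA from position 100 and TGACTCA from position 111, without overlap. The Dnmt1 DMR held TGACTCA from position 76, and the Dnmt3a DMR in intron 2 from position 9. These are matches of letters in 18 regions and no test was made on them.

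Related genes were counted with the same rules, on lists that were chosen with earlier results known. Of 52 tested promoters of 38 genes 5 were called higher, against 11.5% of all promoters, and of their 38 bodies 7 were, against 14.8% of all bodies. In both cases 0 were called lower. Among 22 promoters of methyl-CpG readers and their partners 3 were called higher. Zbtb38 promoter 1 rose from 24.5% (110 calls) to 81.5% (130 calls), Zbtb4 promoter 1 from 9.31% (204 calls) to 42.3% (104 calls) and Zfp57 promoter 3 from 54.0% to 75.6%. The other tested promoters of these genes were not called. Among them Zbtb38 promoter 3 was at 88.2% in WT and 87.8% in TCKO, and Zbtb4 promoter 2 at 62.2% and 71.6%. Zbtb38 and Zbtb4 encode zinc finger proteins that bind methylated DNA. The differences at promoter 1 of each, 57.0 and 33.0 points over all calls, were larger than that of any tested promoter of the 9 machinery genes in the upward direction. Promoters of the related genes were not compared on cytosines with a call in both libraries or by strand. Among 19 promoters of base excision repair and deamination genes 2 were called, Smug1 promoter 5 and Apobec1 promoter 1, at 14.1 and 14.9 points. Among 11 promoters of TET cofactors and partners 0 were called, while the bodies of Cxxc4, Cxxc5, Idh2 and Gadd45a in that list were called higher, by 11.9 to 13.1 points.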

How the data were processed

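WGBS had been done on 1 WT and 1 TCKO library of primary osteoblasts, and groups follow the genotype in the labels. Alignment by the authors was to GRCm38 with BSMAP 2.74, and only reads with a unique position were used. The deposited values are raw counts for each CG cytosine on each strand, of methylated calls and of all calls. Duplicate removal is not stated. From these counts, calls were pooled over promoters, shores, gene bodies (GENCODE M21) and 200 bp bins. Promoters, shores and bodies with at least 20 calls per library, and bins with a mean of at least 4 calls per cytosine, were compared by a 2-sided Fisher exact test, adjusted by Benjamini-Hochberg over all regions of the genome, and the code was tested on simulated data. With a median of 4 calls, single cytosines are known coarsely, so regions were compared. By rule all promoters and bodies of the 9 genes were measured and enter the counts, but not every promoter is named in the text. Of the CG-DMRs, the one with the most calls and the one nearest a TSS per gene are named by rule. The genes and lists were chosen with earlier results of these data known. Alternatives changed the window, coverage, strand, averaging and minimum difference. Shores, and all values on cytosines with a call in both libraries, were added after seeing the data. Promoter sequences are from RefSeq (GRCm38.p6), where all 9 genes matched. The depth over the deleted exons was not used here. The software was scipy 1.17.1, numpy 2.4.6, pandas 2.3.3, numba 0.67.0 and matplotlib 3.10.9 under Python 3.11.15.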

Additional observations from a re-analysis of the deposited data

How the results depend on the processing

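No paired analysis was possible because each genotype had 1 library. The 2 promoters called higher and the 1 called lower became 1 and 0 on cytosines with at least 4 calls in both libraries, and 4 and 0 on cytosines with any call in both, an alternative added after seeing the data. On the plus strand 0 were called higher and on the minus strand 0 lower, and at a minimum of 20 points 0 were called higher. Windows of 1 kb, of 2 kb, and from 1 kb upstream to 100 bp downstream called 7, 6 and 7 higher and 1 lower each, and with the added restriction to cytosines called in both libraries 5, 6 and 5 higher and 0 lower. The bodies called higher, 0 by the rule, became 2 on the minus strand, 1 without the promoter windows and 7 without a minimum difference. The 18 hyper-CG-DMRs became 33 at 20 points and 5 at 60 points, and 34 and 3 with a mean of at least 1 and at least 10 reads per cytosine.

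Of 294 values of single promoters and bodies under an alternative, 39 changed sign, and among these only Tet2 promoter 2 in the window of 2 kb, on cytosines called in both libraries, was then called. The mean of cytosine levels, which has no test, gave 3.72 points for Dnmt3l promoter 1 and -0.284 for Uhrf1 promoter 1. Of the others, the plus strand gave 3.05 points for Tet1 promoter 4, -4.63 for Dnmt3b promoter 2 and -1.70 for Tet2 promoter 1, and the minus strand 1.63 for Tet1 promoter 2, 4.26 for Dnmt1 promoter 2 and -2.12 for the Tdg body. Calls in both libraries gave -0.481 for Uhrf1 promoter 1. The 1 kb window gave 1.24 for Tet1 promoter 2, -1.31 for Uhrf1 promoter 1, 0.0108 for Uhrf1 promoter 2 and 0.203 for Tet2 promoter 2, and on cytosines called in both 1.37, -2.19, 3.77 and 0.579. The 2 kb window gave 5.28 for Dnmt3a promoter 1, 0.924 for Dnmt3a promoter 7, 5.54 for Uhrf1 promoter 2, 8.58 for Tet2 promoter 2 and 1.19 for Dnmt1 promoter 2, and on cytosines called in both 0.830 for Tet1 promoter 4, 0.987 for Dnmt3a promoter 1, 7.21 for Uhrf1 promoter 2, 10.8 for Tet2 promoter 2 and 3.43 for Dnmt1 promoter 2. The window from 1 kb upstream gave 1.44, 3.69 and 2.69 for Tet1 promoters 5, 4 and 2, 1.25 for Dnmt3a promoter 1, 7.05 for Dnmt3a promoter 7 and 0.898 for Tet2 promoter 2, and on cytosines called in both 1.65, 3.30 and 2.59 for the Tet1 promoters, 5.30 for Dnmt3a promoter 7, -1.37 for Uhrf1 promoter 1 and 1.85 for Tet2 promoter 2. For Dnmt3a promoter 1 the libraries covered different cytosines in the narrow window, and for the others the cause was not tested. Dnmt3b promoter 1 was called higher in all 3 wider windows, by 16.7 to 38.2 points, but of these windows on cytosines called in both libraries only in that of 1 kb, by 15.7 points.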
